A study of Mus musculus with 2 samples.

Results

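The 10 genes described here encode NRF2, the transcription factor that switches on the cell's antioxidant programme, and 9 proteins of that programme. They were the rows of the count matrices with the symbols Nfe2l2, Slc7a11, Gclc, Gclm, Gsr, Txnrd1, Prdx1, Prdx6, Srxn1 and Nqo1, which makes 10 of 31053 genes measured. All 10 had at least 1 UMI (unique molecular identifier, which stands for 1 captured transcript) in the cells of each library.

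NRF2 is made continuously and, at rest, is bound by KEAP1, which hands it to a ubiquitin ligase for destruction. Oxidants and electrophiles modify KEAP1, NRF2 then builds up, pairs with small MAF proteins and binds antioxidant response elements near its target genes. The control acts largely on the protein, so the mRNA of Nfe2l2 is not a measure of NRF2 activity. The targets fall into the glutathione system, the thioredoxin and peroxiredoxin system, the enzymes that supply NADPH to both, and enzymes of quinone and heme breakdown. In the brain after a stroke, invading blood myeloid cells and the resident microglia both meet and make reactive oxygen species.

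The cells came from the ischemic brain of Foxp3Egfp mice aged 6 to 8 weeks, which have a green fluorescent reporter inserted at Foxp3, a gene that marks regulatory T cells. Brains were flushed with PBS, CD45+CD11b+CD3-F4/80+ cells were sorted, and their mRNA was read with Chromium 3′ v3 chemistry. There was 1 group with 2 libraries, replicate 1 and replicate 2, and no uninjured or untreated group, so every comparison below is between cell types of the same libraries. Nothing in the labels ties each replicate to animals of its own, and barcoded cDNA of stroke mice was pooled. The p-values rest on how unevenly differences between cell types came out in these libraries, after the shift shared by a whole library was taken out. That spread was pooled over the cell types of a fit, and it may be technical. According to the design text, the sort aimed at infiltrated macrophages and took cells with a low signal, without the name of the marker.

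A barcode counted as a cell from 1000 UMIs and 500 genes upward, with mitochondrial UMIs up to 10%, which gave 15050 cells in replicate 1 and 7910 in replicate 2. After removal of likely doublets, 13624 and 7409 cells with 78812872 and 52351777 UMIs were used, at a median of 4975.5 and 5612 UMIs per cell. Although the samples are labelled as macrophages, cells with microglia markers were the largest class, at 46.7% and 68.9% of cells. Macrophage-like cells made up 32.6% of replicate 1 and 7.38% of replicate 2, monocyte-like cells 2.69% and 5.52%, and neutrophil-like cells 5.16% and 7.72%. Macrophage-like cells held 60580 and 39290 CPM (UMIs scaled to a total of 1000000 per class) over 12 macrophage markers, against 5619 and 2152 CPM in microglia-like cells, and 1642 and 1962 CPM over 10 microglia markers, against 11180 and 16870 CPM. The make-up of the macrophage-like class also differed between libraries. A cluster led by Arg1, Pf4 and Clec4n held 24.7% of the macrophage-like cells of replicate 1 and 67.3% of those of replicate 2, and a cluster led by Gpnmb, Fabp4 and Fabp5 held 48.7% and 9.69%. The sort or gate can set all these shares. The libraries shared 31 cell barcodes, where 17.5 would be shared by chance.

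Names of classes and clusters rest on marker genes only. The 10 genes were kept out of the genes used to form the clusters, but they may vary with genes that were used, in the same cells, so the p-values below describe differences between groups built from these cells. CPM values take all UMIs of the summed cells of a class or cluster as the total, and each transcript is counted once at its 3′ end, so that levels do not scale with gene length. Barcodes under 100 UMIs, which hold free RNA from broken cells rather than a cell, were read beside every class.

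Short stretches of promoter DNA are shown first, because the antioxidant response element is the sequence through which NRF2 acts. The core searched for was TGACNNNGC on either strand, in the 300 bases that run from 250 before to 50 after the gene's start in RefSeq (build GRCm38.p6). Of all 32851 promoters of this length, 12.4% held the core, and 14.0% of 27025 genes had it in any promoter listed. Of the 7 members with an entry, 5 held it, namely Nfe2l2, Gclm, Prdx1, Txnrd1 and Srxn1, while Slc7a11 and Nqo1 did not have these letters in this window. Gclc, Prdx6 and Gsr had no entry. Each stretch below is written 5′ to 3′ on the gene's own strand with the core in capitals. Where the core lies on the opposite strand, the capitals show its reverse complement. A match describes the letters only and is not evidence that a factor binds there.
Nfe2l2, chr2:75704875-75704913, minus strand: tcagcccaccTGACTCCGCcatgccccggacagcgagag
Gclm, chr3:122245403-122245451, plus strand: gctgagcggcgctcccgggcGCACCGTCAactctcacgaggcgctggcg
Prdx1, chr4:116685446-116685494, plus strand: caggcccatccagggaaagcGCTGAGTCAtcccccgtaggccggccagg
Txnrd1, second of 3 promoters, chr10:82859094-82859142, plus strand: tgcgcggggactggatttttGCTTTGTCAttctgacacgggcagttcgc

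The core began 240 bases before the start in Nfe2l2, 134 bases before it in Gclm, 133 bases before it in Prdx1 and 92 bases before it in the second Txnrd1 promoter. In Srxn1 it lay 28 bases after the start.

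Macrophage-like cells had more RNA of 7 members than microglia-like cells, and monocyte-like cells more still of 4 of these, of which only Gsr also passed with a stricter cell filter. The 7 were Srxn1, Prdx1, Prdx6 and Txnrd1 of the thioredoxin and peroxiredoxin system and Slc7a11, Gclm and Gsr of the glutathione system, with differences of 3.24-fold (Txnrd1) to 8.70-fold (Srxn1). Nfe2l2 itself and Gclc, the catalytic subunit of glutathione synthesis, did not pass the test between any 2 of these 3 classes. Nqo1, the quinone reductase often used to read out NRF2 activity, was close to absent from these 3 classes. In the comparison of macrophage-like with microglia-like cells, 7 of the 9 members tested were higher and 0 lower, while of the 11013 background genes (all genes tested except those that built the clusters) 21.9% were higher and 21.1% lower (edgeR's quasi-likelihood test, Benjamini-Hochberg adjustment, threshold 0.05). The count of 0 lower was also 0 at an unadjusted p under 0.05 and with DESeq2. The members' median log2 fold change was 2.44, beside -0.0012 for the background genes. The members were kept out of clustering however variable, while other variable genes built the clusters and so left the background. The background shares here and below may therefore be lower than those of genes as variable as the members.

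**Figure D1:**
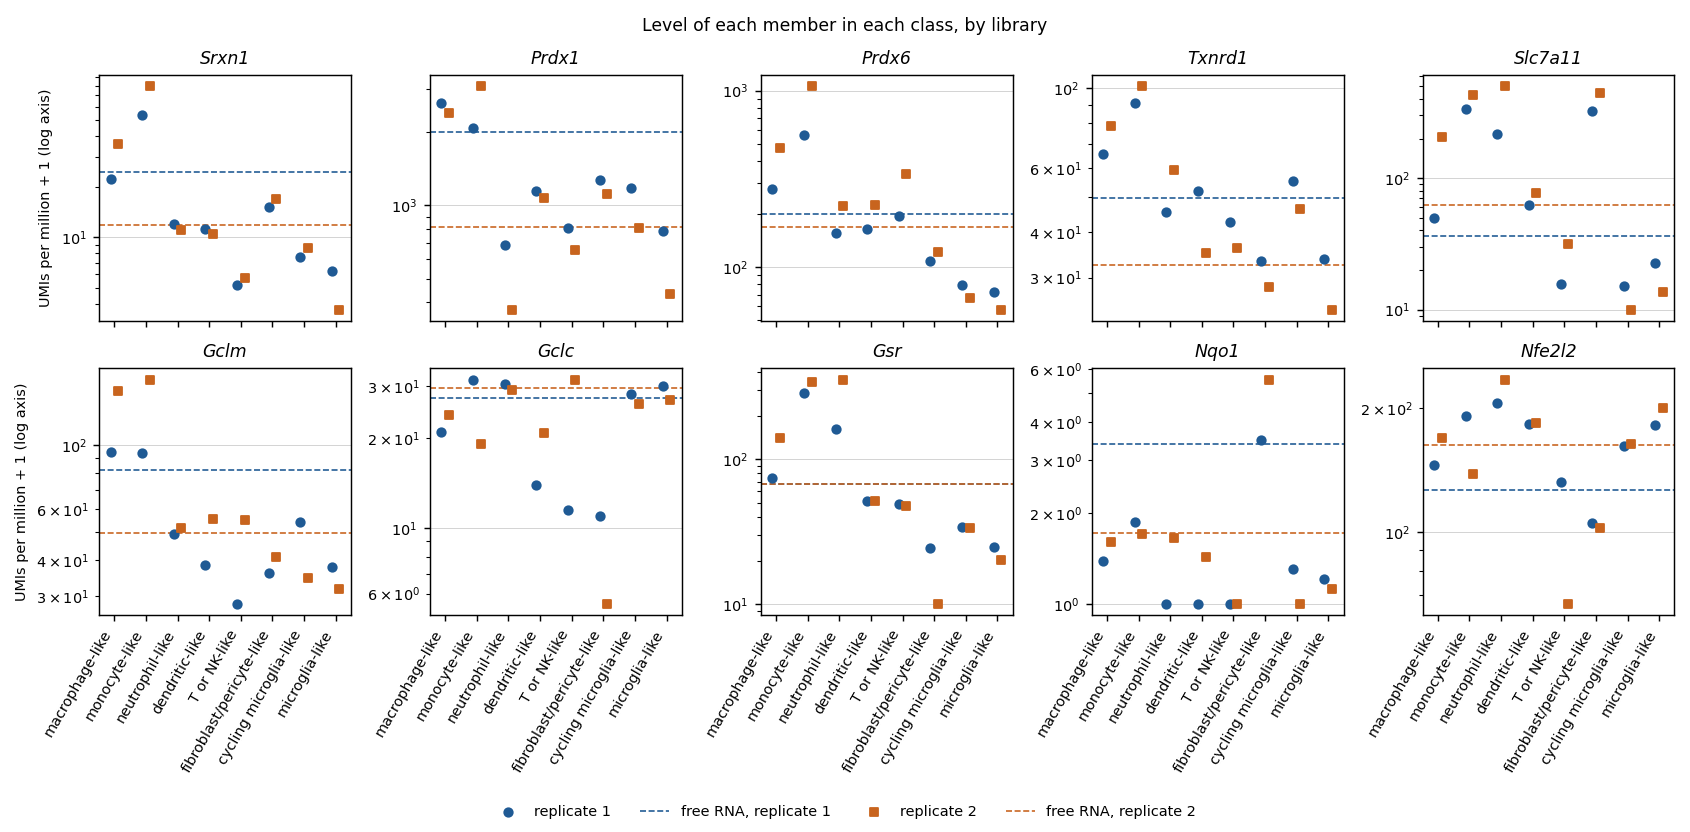
Level of each of the 10 genes (CPM plus 1, log axis) in 8 classes of cells, with circles for replicate 1, squares for replicate 2 and dashed lines for free RNA in each library. Srxn1, Prdx6, Txnrd1 and Gsr stood highest in monocyte-like cells and at or near their lowest in microglia-like cells, and Nfe2l2 and Gclc lay at similar levels across most classes.

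The thioredoxin and peroxiredoxin system removes peroxides with electrons that NADPH passes through thioredoxin reductase. Srxn1 (chr2:152105516-152111376, plus strand, GRCm38), or sulfiredoxin, repairs peroxiredoxins that have been over-oxidized to the sulfinic acid. Macrophage-like cells held 21.1 CPM (replicate 1) and 35.1 CPM (replicate 2) of its RNA, and microglia-like cells 5.24 and 2.68 CPM. Both macrophage-like values lay above both microglia-like values, and the log2 fold change was 3.12 ± 0.28 (SE, adjusted p = 7.0e-08). The microglia-like level was below that of free RNA (23.6 and 10.8 CPM), as it was for 8 of the 10 members in both libraries. Free RNA may therefore hold a part of these levels in microglia-like cells, and how large a part was not tested.

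Monocyte-like cells had the highest Srxn1 of the 8 classes, at 52.3 and 78.8 CPM, apart from macrophage-like cells in both libraries. The difference of macrophage-like from monocyte-like cells was -1.32 ± 0.27 (log2, adjusted p = 0.0018), and with the stricter cell filter it did not pass (adjusted p = 0.11). After macrophage-like cells the order went on with fibroblast or pericyte-like cells (14.1 and 15.9 CPM) and neutrophil-like cells (11.03 and 10.10 CPM).

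Prdx1 (chr4:116685544-116700822, plus strand), a cytosolic peroxiredoxin that reduces hydrogen peroxide, was the most abundant member. Macrophage-like cells had 2638 and 2396 CPM and microglia-like cells 782 and 432 CPM, the last below free RNA (2010 and 817 CPM). The macrophage-like values were higher in both libraries (log2 fold change 2.44 ± 0.30, adjusted p = 2.3e-06). Monocyte-like cells, at 2080 and 3098 CPM, spanned the macrophage-like values, and that difference did not pass the test (macrophage-like minus monocyte-like, log2 -0.09, 95% interval -0.69 to 0.50, adjusted p = 0.87). The next class, fibroblast or pericyte-like cells, reached 1191 ± 108 CPM (SD, n = 2).

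Prdx6 (chr1:161240112-161251219, minus strand) is the peroxiredoxin that also reduces lipid peroxides and draws on glutathione. Its levels were 276 and 471 CPM in macrophage-like cells and 71.5 and 56.3 CPM in microglia-like cells, a log2 fold change of 2.82 ± 0.29 (adjusted p = 3.6e-07). Monocyte-like cells again lay higher, at 558 and 1063 CPM, and macrophage-like cells differed from them by -1.13 ± 0.28 (log2, adjusted p = 0.0065). This call was lost with the stricter cell filter (-0.55, adjusted p = 0.35) and at Leiden resolution 1.2 (-0.76, adjusted p = 0.097). The near copy Prdx6b had no UMI in the cells.

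Txnrd1 (chr10:82833951-82897712, plus strand), the cytosolic thioredoxin reductase, differed least among the 7. Its 64.7 and 77.5 CPM in macrophage-like cells did not overlap the 32.8 and 23.4 CPM in microglia-like cells (log2 fold change 1.70 ± 0.22, adjusted p = 4.3e-06). Monocyte-like cells held 89.8 and 100.4 CPM, and the difference of macrophage-like from monocyte-like cells was -0.44 (95% interval -0.91 to 0.03, adjusted p = 0.17). Eid3 lies on the same strand within the Txnrd1 locus and had 292 UMIs in the cells, so a few reads of one gene may have been counted for the other.

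Glutathione synthesis begins with cystine import. Slc7a11 (chr3:49892526-50443614, minus strand) is the light chain of the cystine-glutamate exchanger, which brings in cystine and releases glutamate. Its levels ran from 8.90 CPM in cycling microglia-like cells to 504 CPM in neutrophil-like cells. Macrophage-like cells had 48.7 CPM in replicate 1 and 205 CPM in replicate 2, against 21.6 and 12.6 CPM in microglia-like cells. Both libraries showed the same direction, with log2 fold changes of 1.60 and 4.28, and the joint estimate was 2.94 ± 0.44 (adjusted p = 2.5e-05). The Arg1-led cluster, which made up most of the macrophage-like cells of replicate 2, carried this difference, as described below.

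Monocyte-like cells held 332 and 430 CPM of Slc7a11, neutrophil-like cells 215 and 504 CPM, and fibroblast or pericyte-like cells 326 and 445 CPM. These 3 classes overlapped each other and lay apart from macrophage-like cells, which overlapped dendritic cell-like cells at 61.9 and 75.4 CPM. Macrophage-like cells differed from monocyte-like cells by -1.77 ± 0.41 (log2, adjusted p = 0.0046), a call that was lost with the stricter cell filter (adjusted p = 0.18) and at Leiden resolution 1.2 (adjusted p = 0.054). In cells thinned to 1000 UMIs each, 5.91% and 13.9% of macrophage-like cells had a Slc7a11 UMI, against 1.62% and 0.607% of microglia-like cells. T or NK cell-like cells, in which the gene is low unless they are activated, had 0.704% and 1.04% (median depth 1948 and 3340 UMIs), of 142 and 96 cells. They also held 14620 and 1712 CPM over the 12 macrophage markers, beside 3161 and 7176 CPM over 9 T or NK markers. These shares are therefore no sure level of cells without the gene. Without thinning, the shares were 16.3% and 43.9% in macrophage-like cells and 5.90% and 4.76% in microglia-like cells. The shares in monocyte-like cells after thinning were 27.3% and 31.5%.

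Gclc and Gclm form the enzyme that joins glutamate and cysteine, the limiting step of glutathione synthesis, with Gclc as the catalytic and Gclm as the modifier subunit. Gclm (chr3:122245557-122270732, plus strand) had 93.8 and 154 CPM in macrophage-like cells and 36.8 and 30.6 CPM in microglia-like cells. Its values did not overlap, and the log2 fold change was 2.18 ± 0.28 (adjusted p = 4.9e-06). Monocyte-like cells, at 93.3 and 168 CPM, overlapped macrophage-like cells (log2 difference of macrophage-like from monocyte-like cells -0.13, 95% interval -0.71 to 0.46, adjusted p = 0.82).

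Gclc (chr9:77754535-77794485, plus strand) did not differ as its partner did. The libraries held 20.1 and 23.0 CPM of it in macrophage-like cells, 30.5 and 18.1 CPM in monocyte-like cells, 29.6 and 28.0 CPM in neutrophil-like cells and 29.0 and 25.9 CPM in microglia-like cells. These values lay around the level of free RNA (26.4 and 28.6 CPM). The difference of macrophage-like from microglia-like cells was 0.005 on the log2 scale with a 95% interval of -0.44 to 0.45 (adjusted p = 1). Scaling to total UMIs in place of TMM moved the median of all genes to -0.36, and Gclc then stood at -0.37 and Nfe2l2 at -0.29, still not past the threshold.

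Gsr (chr8:33652523-33698163, plus strand), glutathione reductase, returns oxidized glutathione to its reduced form with NADPH. It had 73.7 and 140 CPM in macrophage-like cells and 24.0 and 19.3 CPM in microglia-like cells, a log2 fold change of 2.58 ± 0.33 (adjusted p = 4.0e-06). Monocyte-like cells (283 and 339 CPM) and neutrophil-like cells (161 and 353 CPM) were the 2 highest classes and overlapped each other. Macrophage-like cells were lower than monocyte-like cells by -1.59 ± 0.32 (log2, adjusted p = 0.0014).

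Nqo1 (chr8:107388225-107403206, minus strand), which reduces quinones by 2 electrons at once, had 12 and 3 UMIs in all macrophage-like cells and 6 and 4 UMIs in all microglia-like cells. That is 0.386 and 0.605 CPM in macrophage-like cells, against 0.213 and 0.122 CPM in microglia-like cells. Nqo1 lay below free RNA in 7 of the 8 classes and did not pass the filter on low counts. The exception was the fibroblast or pericyte-like class, with 2.495 and 4.55 CPM beside 2.40 and 0.723 CPM in free RNA. Of the macrophage-like cells, 12 of 4436 and 3 of 547 had an Nqo1 UMI without thinning. Nqo1 was tested only under alternatives that let it pass the filter. In 4 of these, macrophage-like cells did not differ from microglia-like cells past the threshold (adjusted p = 0.11 to 0.81). Monocyte-like cells were higher than microglia-like cells at Leiden resolution 0.4 (log2 2.36, adjusted p = 0.026), where their class took in the Arg1-led cluster described below, and did not pass under the other 3 (adjusted p = 0.17 to 0.29). That cluster held 10 and 2 Nqo1 UMIs, against 2 and 1 in the Gpnmb-led macrophage-like cluster and 0 in both libraries of the Fbxo32-led one, and with no filter on low counts it passed as higher than the mean of those clusters (adjusted p = 0.030).

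Nfe2l2 (chr2:75675513-75704641, minus strand), the gene of NRF2 itself, varied little among the myeloid classes. Its levels were 144 and 168 CPM in macrophage-like cells, 190 and 138 CPM in monocyte-like cells, 205 and 234 CPM in neutrophil-like cells and 181 and 199 CPM in microglia-like cells. As CPM, the macrophage-like values lay just below the microglia-like ones. After TMM scaling, which corrects for the few very abundant RNAs of a class, the log2 difference was 0.08 (95% interval -0.34 to 0.49, adjusted p = 0.80). As CPM, neutrophil-like cells stood apart at the top, and fibroblast or pericyte-like cells (104 and 101 CPM) and T or NK cell-like cells (131 and 65.7 CPM) at the bottom. After TMM scaling, the difference of neutrophil-like from microglia-like cells did not pass the test (log2 0.29, 95% interval -0.13 to 0.71, adjusted p = 0.47).

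Set against microglia-like cells, the monocyte-like class showed the same 7 members higher, with 18.8% of the background genes higher and 18% lower. Slc7a11 (4.71 ± 0.47), Srxn1 (4.44 ± 0.30), Gsr (4.17 ± 0.35) and Prdx6 (3.94 ± 0.31) led, followed by Prdx1, Gclm and Txnrd1 between 2.14 and 2.54 (log2 fold changes ± SE). The largest of the 7 adjusted p-values was 5.8e-06. The members' median was 2.54, beside -0.12 for the background genes.

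Between macrophage-like and monocyte-like cells, 4 members were lower in macrophage-like cells (Prdx6, Srxn1, Slc7a11 and Gsr) and 0 higher, with 11.4% of the background genes lower and 10.2% higher. The count of 0 higher was also 0 at an unadjusted p under 0.05 and with DESeq2. Macrophage-like cells held 493 and 1653 CPM over the 8 monocyte markers, against 7935 and 10670 CPM in monocyte-like cells. Over the 12 macrophage markers monocyte-like cells reached 21090 and 32810 CPM. With a stricter cell filter 1 of the 4 was still called, Gsr (-1.18, adjusted p = 0.024), and with clusters at Leiden resolution 1.2 there were 2, Gsr (-1.14, adjusted p = 0.028) and Srxn1 (-0.98, adjusted p = 0.031).

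Neutrophil-like cells had 5 members higher than microglia-like cells and 0 lower, where 5.52% of the background genes were higher and 0.572% lower. The count of 0 lower was again 0 at an unadjusted p under 0.05 and with DESeq2. Slc7a11 led (215 and 504 CPM in neutrophil-like cells, against 21.6 and 12.6 CPM in microglia-like cells, log2 fold change 4.29 ± 0.46, adjusted p = 1.6e-06), followed by Gsr (3.59 ± 0.34, adjusted p = 3.6e-07). Prdx6 (1.57 ± 0.28), Srxn1 (1.49 ± 0.34) and Txnrd1 (0.95 ± 0.22) followed, with adjusted p-values of 0.00072, 0.0060 and 0.0082. Gclm (0.60, adjusted p = 0.25), Nfe2l2 (0.29, adjusted p = 0.47), Gclc (0.14, adjusted p = 0.80) and Prdx1 (-0.14, adjusted p = 0.84) did not pass. With the likely doublets kept, Prdx6 (adjusted p = 0.10) and Srxn1 (adjusted p = 0.44) no longer passed. Txnrd1 was lost with the stricter cell filter (0.70, adjusted p = 0.15) and Srxn1 at Leiden resolution 0.4 (0.81, adjusted p = 0.20), and with no filter on low counts Gclm passed as higher (adjusted p = 0.044). All 10 microglia markers were detected in the neutrophil-like cluster, at 8834 and 8330 CPM in sum against 11180 and 16870 CPM in microglia-like cells, beside 29420 and 69300 CPM of the 10 neutrophil markers. Their part in these values was not tested.

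**Figure D2:**
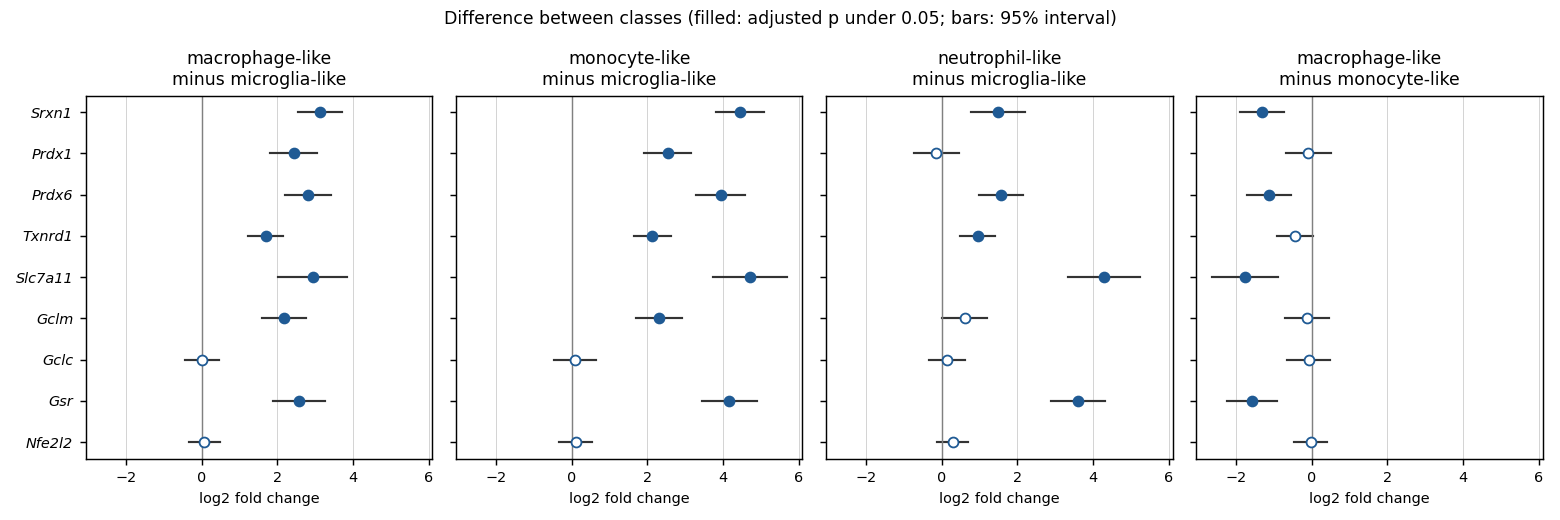
Log2 fold change (x axis) of the 9 tested members in 4 comparisons of classes, with bars for the 95% interval and filled points for an adjusted p under 0.05. Against microglia-like cells, 7 members were higher in the macrophage-like class, 7 in the monocyte-like class and 5 in the neutrophil-like class, and 4 were lower in macrophage-like than in monocyte-like cells.

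Within the macrophage-like class the members were far from even. The Arg1-led cluster (1097 and 368 cells), whose leading genes also include Hmox1, Vegfa and Thbs1, had 8 members higher and 1 lower than the mean of the other two macrophage-like clusters. Of the 11212 background genes of the fit over clusters, 7.37% were higher and 7.14% lower, and the median was 1.93 for the members and 0.0029 for the background genes.

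Slc7a11 showed the widest gap. It stood at 212 and 319 CPM in the Arg1-led cluster, against 9.67 and 6.85 CPM in the Gpnmb-led cluster (2160 and 53 cells). The cluster led by Fbxo32, Cxcr4 and Apoe (1179 and 126 cells) had 21.4 and 16.3 CPM. The lowest Arg1-cluster value was therefore well above every value of the other two, and the log2 fold change was 3.96 ± 0.30 (adjusted p = 2.1e-12).

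Gclm followed at 303 and 222 CPM in the Arg1-led cluster, against 48.2 and 50.7 CPM in the Gpnmb-led and 45.7 and 28.9 CPM in the Fbxo32-led cluster (2.37 ± 0.22, adjusted p = 3.8e-10). Prdx6 stood at 882 and 653 CPM in the Arg1-led cluster, against 154 and 248 CPM in the Gpnmb-led and 106 and 107 CPM in the Fbxo32-led cluster (2.25 ± 0.20, adjusted p = 1.2e-10). Gsr stood at 218 and 202 CPM in the Arg1-led cluster, against 42.9 and 49.3 CPM in the Gpnmb-led and 38.2 and 24.4 CPM in the Fbxo32-led cluster (2.21 ± 0.22, adjusted p = 1.3e-09). None of these values overlapped between the Arg1-led cluster and the others.

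Srxn1 (56.8 and 48.7 CPM), Txnrd1 (147 and 104 CPM) and Prdx1 (4983 and 2960 CPM) were likewise highest in the Arg1-led cluster in both libraries, with log2 fold changes of 1.93 ± 0.22, 1.45 ± 0.16 and 1.07 ± 0.19. Gclc, which did not separate the classes, did separate these clusters. It had 42.1 and 32.1 CPM in the Arg1-led cluster, against 15.8 and 6.85 CPM in the Gpnmb-led and 13.2 and 8.13 CPM in the Fbxo32-led cluster (1.34 ± 0.21, adjusted p = 1.3e-05).

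Nfe2l2 went the other way, at 109 and 153 CPM in the Arg1-led cluster, against 139 and 162 CPM in the Gpnmb-led and 194 and 215 CPM in the Fbxo32-led cluster. The log2 fold change was -0.61 ± 0.16 (adjusted p = 0.0054), and with scaling to total UMIs it was -0.42 and did not pass (adjusted p = 0.074). The Arg1-led cluster overlapped the Gpnmb-led one and lay below the Fbxo32-led one.

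The Arg1-led cluster also held more RNA of the monocyte markers (1478 and 2333 CPM over 8 genes) than the Gpnmb-led (282 and 787 CPM) and Fbxo32-led clusters (254 and 310 CPM). Over 8 markers of border-associated macrophages, the macrophages of the meninges and vessels, it held 5363 and 3152 CPM, against 1241 and 626 CPM in the Gpnmb-led and 918 and 867 CPM in the Fbxo32-led cluster. The cluster named border-associated macrophage-like held 3936 and 4849 CPM. Of these 8 genes, 1 was at 0 in the Arg1-led cluster in each library, Pf4 is one of its leading genes, and F13a1 stands in the monocyte list too. The part of these markers in the members' values was not tested. At a coarser clustering (Leiden resolution 0.4), 97.8% and 100% of its cells fell in a monocyte-like class, and at a finer one (1.2) 91.2% and 76.9% stayed macrophage-like. Where the line between monocyte and macrophage was drawn moved these values: at resolution 0.4, macrophage-like minus microglia-like was -0.21 for Slc7a11 (adjusted p = 0.74) and 0.32 for Gclm (adjusted p = 0.45). Without the Arg1-led cluster, a comparison chosen after seeing the data, macrophage-like cells had 6 of 9 members higher than microglia-like cells, where 18.8% of 10772 background genes were higher and 19.3% lower. The median was 0.97 for the members and -0.018 for the background genes. Slc7a11 was then 0.02 (adjusted p = 0.99) and Gclm 0.82 (adjusted p = 0.033), while Srxn1 (2.16), Prdx1 (1.99), Prdx6 (1.65), Gsr (1.29) and Txnrd1 (0.97) also passed as higher. Against monocyte-like cells, 6 members were then lower, with Slc7a11 at -4.67, Gclm at -1.43 and Txnrd1 at -1.10, where 11.7% of the background genes were lower and 13.6% higher.

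The Fbxo32-led cluster had 8 members lower than the mean of the other two (log2 fold changes from -1.74 for Prdx6 to -0.89 for Gclc) and Nfe2l2 higher (0.66 ± 0.15, adjusted p = 0.0026), where 7.62% of the background genes were lower and 8.02% higher. Here and for the Gpnmb-led cluster, the mean of the others includes the Arg1-led cluster, so these calls partly mirror its own. Slc7a11 was called lower here, although its level in the Fbxo32-led cluster lay above that of the Gpnmb-led one in both libraries. Slc7a11 (adjusted p = 0.058 without the library as a block, 0.076 with DESeq2) and Gclc (0.091 without the block) were lost under those settings. In the Gpnmb-led cluster 3 members were lower, with 3.71% of the background genes lower and 4.34% higher, and 0 members higher, also at an unadjusted p under 0.05 and with DESeq2. They were Slc7a11 (-2.75 ± 0.38, adjusted p = 4.7e-06), Gclm (-0.97, adjusted p = 0.012) and Gsr (-0.80, adjusted p = 0.036). Gclm (0.072) and Gsr (0.12) were lost without the block, and Gsr also with DESeq2 (-0.76, adjusted p = 0.091), which left 2 lower. With scaling to total UMIs Gclc (adjusted p = 0.043) and Txnrd1 (adjusted p = 0.024) passed as lower too, and with no filter on low counts Prdx6 did (adjusted p = 0.028).

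**Figure D3:**
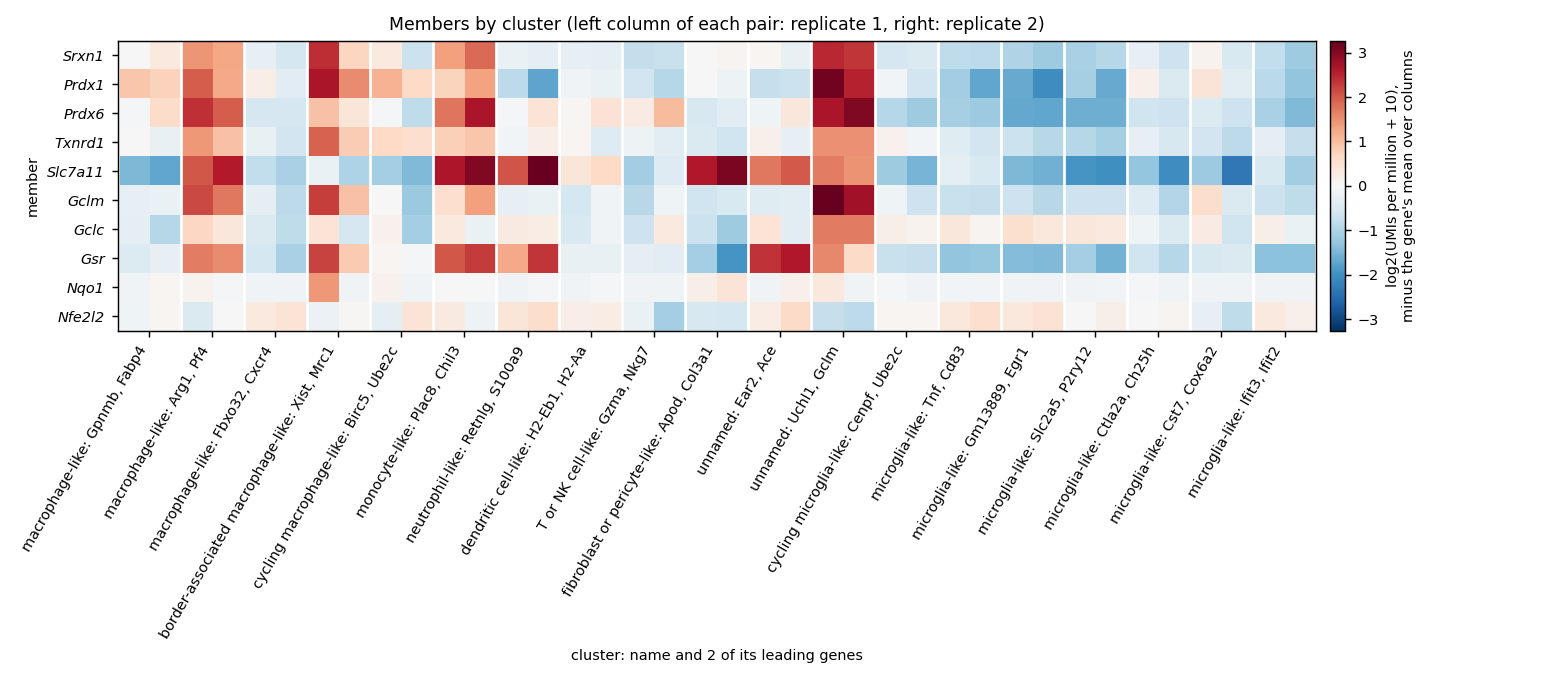
Members (rows) by cluster (pairs of columns, replicate 1 left and replicate 2 right), coloured by log2(CPM plus 10) minus the gene's mean over the columns, for clusters with at least 100 cells in all. The Arg1-led macrophage-like cluster is red for 8 members and Nfe2l2 is paler there, and the microglia-like clusters on the right are mostly blue.

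The members also varied among the 6 microglia-like clusters, at lower levels. A cluster led by Cst7, Cox6a2 and Cd72 (260 and 304 cells), of which Cst7 is known from microglia near damaged tissue, had 5 members higher than the mean of the other microglia-like clusters and Nfe2l2 lower, where 13.1% of the background genes were higher and 11.4% lower. Prdx1 stood at 1663 and 968 CPM there, against 379 to 1412 CPM over the libraries of the clusters led by Tnf, Slc2a5, Ctla2a and Ifit3 and 395 and 298 CPM in that led by Gm13889 (1.53 ± 0.16, adjusted p = 4.1e-09). Srxn1 (2.14 ± 0.46), Gsr (1.34 ± 0.29), Gclm (1.26 ± 0.27) and Prdx6 (1.11 ± 0.22) were the others. Nfe2l2 had 126 and 82.6 CPM in this cluster, the lowest of the 6 in each library (-0.55 ± 0.16, adjusted p = 0.012).

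The cluster led by Ctla2a, Ch25h and Cd72 (975 and 172 cells) had Srxn1 (1.57 ± 0.29), Prdx1 (1.18 ± 0.16), Prdx6, Gsr and Txnrd1 higher, 5 members in all, and 0 lower, with 16.1% of the background genes higher and 9.07% lower; 1 member, Gclc, was lower at an unadjusted p under 0.05, and 0 were lower with DESeq2. Gclc passed as lower with scaling to total UMIs (-0.65, adjusted p = 0.0059), with RLE size factors (adjusted p = 0.032) and with no filter on low counts (adjusted p = 0.048). Gsr was lost with DESeq2 (0.69, adjusted p = 0.058), which left 4 higher. Prdx1 reached 1412 and 902 CPM there. Prdx1, Prdx6 and Srxn1 thus passed as higher in both clusters with Cd72 among their 3 leading genes, with edgeR and with DESeq2, and Gsr with edgeR, whereas Slc7a11 passed in neither (0.07 and -0.81). Over the 12 macrophage markers, the Ctla2a-led cluster held 13950 and 7867 CPM and the Cst7-led one 7534 and 4908 CPM. The Gm13889-led cluster held 1415 and 836 CPM, and the clusters led by Tnf, Slc2a5 and Ifit3 held 1497 to 3422 CPM. The part of these markers in the members' values was not tested.

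Slc7a11 had its highest microglial level in the cluster led by Tnf, Cd83 and Il1a, genes of acute inflammation (2336 and 1107 cells). It stood at 34.7 and 28.4 CPM there, against 0.718 to 28.5 CPM in the other 5 clusters, with the cluster led by Ifit3 of replicate 1 just above the lower value. The log2 fold change was 1.998 ± 0.277 (adjusted p = 1.9e-06). Nfe2l2 was also higher in the Tnf-led cluster (0.47 ± 0.13, adjusted p = 0.019), which was lost with total UMI scaling (0.067) and without the block (0.091). In this comparison 2 members were higher and 0 lower, with 4.85% of the background genes higher and 1.11% lower. At an unadjusted p under 0.05 Prdx1 was lower, and with DESeq2 0 members were. Prdx1 passed as lower with scaling to total UMIs (-0.55, adjusted p = 0.043) and with no filter on low counts (adjusted p = 0.023).

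The cluster led by Gm13889, Egr1 and Hspb1, of which Egr1 is an early-response gene and Hspb1 a heat-shock gene, had 6 members lower (Srxn1, Prdx1, Prdx6, Gsr, Gclm and Txnrd1, log2 -1.99 to -0.50) and 0 higher, with 15.9% of the background genes lower and 16.8% higher. With scaling to total UMIs, which moved the median of all genes to 0.31, Gclm, Txnrd1 and Gsr no longer passed, and Nfe2l2 (0.38) and Gclc (0.60) passed as higher. Gclm was also lost with DESeq2 (adjusted p = 0.10) and without the block (0.093), as Txnrd1 was without the block (0.080), and with no filter on low counts Slc7a11 passed as lower (adjusted p = 0.048). In the cluster led by Slc2a5, P2ry12 and Csmd3, genes of resting microglia, 4 members were lower (Slc7a11, Prdx6, Txnrd1 and Prdx1, log2 -1.95 to -0.71) and 0 higher, with 4.86% of the background genes lower and 7.58% higher. Prdx1 was lost there without the block (adjusted p = 0.13), Gsr passed as lower with no filter on low counts (adjusted p = 0.0051), and Gclc passed as higher with scaling to total UMIs (0.485, adjusted p = 0.018). For both clusters the count of 0 higher was 0 at an unadjusted p under 0.05 and with DESeq2, but not with scaling to total UMIs. The interferon cluster led by Ifit3 had 0 members past the threshold with edgeR and 0 with DESeq2, and 1 at an unadjusted p under 0.05 (Slc7a11, 1.23, adjusted p = 0.077, and 4.2e-06 with no filter on low counts), with 2.87% of the background genes higher and 0.259% lower.

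Whether single cells held several members at once was read after thinning every cell to 1000 UMIs. Cells with UMIs of at least 4 of the 10 genes made up 4.19% (exact 95% interval 3.62 to 4.82%) and 6.399% (4.50 to 8.79%) of macrophage-like cells, 9.84% and 16.6% of monocyte-like cells and 0.220% (0.12 to 0.369%) and 0.0587% (0.0121 to 0.172%) of microglia-like cells. Within macrophage-like cells, the Arg1-led cluster had 14.4% (12.4 to 16.6%, 158 cells) and 9.51% (35 cells), against 0.926% and 0% in the Gpnmb-led and 0.679% and 0% in the Fbxo32-led cluster. Intervals cover counting error only. No share that independent members would give was set beside these. Cells with higher levels of each member hold more members at once for that reason alone, so joint expression was not tested.

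**Figure D4:**
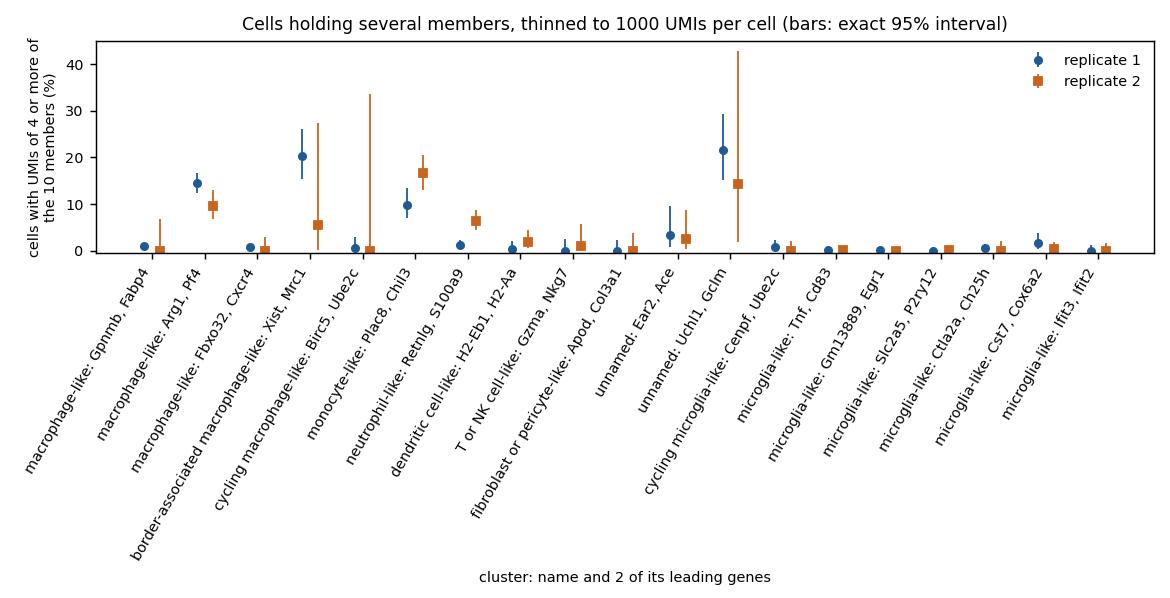
Percent of cells with UMIs of at least 4 of the 10 genes (y axis) after each cell was thinned to 1000 UMIs, by cluster and library, with exact 95% binomial intervals. The Arg1-led cluster stood at 14.4% and 9.51%, above the other macrophage-like clusters, whose values were under 1%. The 0% of the Gpnmb-led cluster in replicate 2 rests on 53 cells, with an interval up to 6.72%.

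Around the members, genes of the same pathways were read from lists in macrophage-like against microglia-like cells, where 21.9% of the background genes were higher and 21.1% lower. Of 7 tested genes that supply NADPH, the electron source of both Gsr and Txnrd1, all 7 were higher, with a median of 1.30. Me1, malic enzyme (1.26 and 1.41 CPM in macrophage-like cells, against 0.213 and 0.0913 CPM in microglia-like cells), and Idh1, the cytosolic isocitrate dehydrogenase (102 and 65.8 CPM in macrophage-like cells, against 28.2 and 23.1 CPM in microglia-like cells, log2 fold change 2.07 ± 0.20), had the largest differences. Me1 was near the floor in both classes, so its difference rests on few UMIs.

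Of 12 other glutathione genes tested, 9 were higher and 1 lower, with a median of 1.14. Mgst1, a membrane-bound glutathione transferase and peroxidase (248 and 140 CPM in macrophage-like cells, against 9.57 and 1.28 CPM in microglia-like cells, 5.65 ± 0.63, adjusted p = 9.4e-07), and Gstm1, a cytosolic transferase (3.67 ± 0.31, adjusted p = 3.3e-08), led. Ggt5, which cleaves extracellular glutathione conjugates, was lower (1.64 and 2.02 CPM in macrophage-like cells, against 15.5 and 22.2 CPM in microglia-like cells, -2.93 ± 0.23, adjusted p = 1.5e-08). Slc3a2, the heavy chain that carries the Slc7a11 protein to the membrane, did not pass (0.15).

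Of 11 other thioredoxin and peroxiredoxin genes, 5 were higher and 3 lower, with a median of 0.32. Txn1, the substrate of Txnrd1, had 993 and 1087 CPM in macrophage-like cells, against 192 and 124 CPM in microglia-like cells (3.06 ± 0.33, adjusted p = 5.3e-07). Prdx5, a mitochondrial and peroxisomal peroxiredoxin, was higher by 1.27 ± 0.23. Txnip, which binds and blocks thioredoxin, was lower, at 39.6 and 97.9 CPM in macrophage-like cells, against 375 and 540 CPM in microglia-like cells (-2.45 ± 0.28, adjusted p = 9.8e-07), and Sesn3 was lower by -0.96 ± 0.33 (adjusted p = 0.023).

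Of 12 other NRF2 targets tested, 10 were higher and 1 lower, with a median of 1.84. Hmox1, which breaks down heme, had 1476 and 4049 CPM in macrophage-like cells, against 447 and 292 CPM in microglia-like cells (3.19 ± 0.45, adjusted p = 1.3e-05), and Ftl1, the ferritin light chain, had 28840 and 30800 CPM in macrophage-like cells, against 8720 and 6421 CPM in microglia-like cells (2.35 ± 0.31, adjusted p = 7.8e-06). Ephx1, microsomal epoxide hydrolase, was the one lower (-1.59 ± 0.32, adjusted p = 0.00058). Of 4 genes of superoxide and peroxide removal, 2 were higher and the rest did not pass, with a median of 0.96. They were Sod2, the mitochondrial superoxide dismutase (1.16 ± 0.20), and Cat, catalase (1.15 ± 0.18).

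Among the genes that control NRF2, 2 were higher, 2 were lower and the rest of 8 did not pass, with a median of -0.06; these shares are near those of the background genes, so the counts show nothing about this list. Rbx1, part of the ubiquitin ligase, was higher by 1.07 ± 0.17 (adjusted p = 6.3e-05), and Sqstm1, which draws KEAP1 into autophagy, by 0.73 ± 0.24 (adjusted p = 0.020). Maff, a small MAF partner (10.4 and 17.0 CPM in macrophage-like cells, against 49.6 and 29.4 CPM in microglia-like cells, -1.23 ± 0.24), and Bach1, a repressor that competes for the same DNA element (40.9 and 50.8 CPM in macrophage-like cells, against 95.7 and 82.8 CPM in microglia-like cells, -0.61 ± 0.20, adjusted p = 0.021), were lower. Keap1 did not pass (0.37, adjusted p = 0.071).

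Slc7a11 is also a target of ATF4, the factor of amino acid stress. Of 7 tested ATF4 genes, 3 were higher and 2 lower, with a median of -0.15. Trib3 (2.95 ± 0.55), a pseudokinase, and Asns, asparagine synthetase (2.25 and 9.48 CPM in macrophage-like cells, against 1.59 and 1.46 CPM in microglia-like cells, 1.92 ± 0.39, adjusted p = 0.00062), were higher. Slc7a5, a transporter of large neutral amino acids (-1.48 ± 0.37, adjusted p = 0.0032), and Psat1, of serine synthesis (-0.92 ± 0.24, adjusted p = 0.0048), were lower. Of the 6 genes of the phagocyte NADPH oxidase, which makes superoxide, 3 were higher and the rest did not pass, with a median of 0.62. Among the 3 were the catalytic subunit Cybb (178 and 180 CPM in macrophage-like cells, against 23.7 and 11.2 CPM in microglia-like cells, 3.75 ± 0.46, adjusted p = 2.5e-06) and Cyba (1.25 ± 0.19, adjusted p = 3.9e-05).

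Within macrophage-like cells, the Arg1-led cluster had 6 of the 12 other NRF2 targets higher and 1 lower, 6 of the 12 other glutathione genes higher, and 5 of the 7 ATF4 genes higher and 1 lower, beside 7.37% of the background genes higher and 7.14% lower. NADPH supply had 5 of 7 genes higher and 1 lower there, and NRF2 control 4 of 8 higher. Other lists rose less in the Arg1-led cluster. Of 11 other thioredoxin and peroxiredoxin genes 2 were higher and 3 lower. Superoxide and peroxide removal had 1 of 4 higher, and the oxidase 0 of 6 higher and 1 lower. Without this cluster, macrophage-like cells had 3 of 5 tested ATF4 genes lower than microglia-like cells, and 1 of 8 genes of NRF2 control higher and 4 lower, beside 18.8% of the background genes higher and 19.3% lower. NADPH supply then had 6 of 7 genes higher, the oxidase 3 of 6 higher, and other NRF2 targets 7 of 12 higher and 1 lower.

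Over 32 sums (16 clusters in both libraries), the genes most like the mean of the members in their profile were Pgd (Pearson r = 0.89), which supplies NADPH, Sod2 (0.89), Esd (0.88), Por (0.88) and Prdx5 (0.86), out of 2193 genes. These 2193 left out the genes used for clustering. Genes of the lists, such as Pgd, Sod2, Esd and Prdx5, were kept out of clustering and so stayed candidates however variable, which favours them in this ranking. Among the members, Srxn1 (0.89), Txnrd1 (0.89), Prdx6 (0.84) and Gclm (0.84) followed the mean of the others most closely, and Gclc (0.09) and Nfe2l2 (-0.17) least. These coefficients describe these sums, which share libraries and differ in depth.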

How the data were processed

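Cell Ranger 4, per the file headers, wrote the deposited matrices of unnormalized UMI counts, with every barcode of the kit listed. Per the submitters' processing notes the tools were Seurat 4, Cell Ranger 4.0.0 and STAR 2.5.1b, and the builds named are mm10, GRCm38 and, with no role stated, GRCh38. How reads shared by near-identical genes were counted was not stated there. Gene positions are 1-based and come from an annotation of GRCm38 that holds 99.9% of the gene IDs. The members and gene lists were chosen with earlier results of these data known.

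Replicate 1 held 101893367 and replicate 2 62850768 UMIs in all, of which barcodes under 100 UMIs, used as the profile of free RNA, held 4.91% and 4.40%. Scrublet (scanpy 1.11.5) marked 1426 cells (9.48%) of replicate 1 as doublets. It marked 0 of 7910 cells of replicate 2, which was taken as a failed call, so the 501 cells with the top scores (6.33%) were left out there. Cells were clustered on 2000 variable genes, without the members, the gene lists, mitochondrial or ribosomal protein genes, with 30 principal components, 15 neighbours and Leiden resolution 0.8 (leidenalg 0.10.2, igraph 0.11.9, scikit-learn 1.9.0, anndata 0.12.19, seed 1), with no batch correction. Cluster names came from 16 marker lists; the scoring rule behind the names was written after earlier clusters of these cells had been seen. A name needed 100 cells, 3 detected markers (50 CPM and 25% of the highest cluster) and no conflict with the 10 leading genes. The leading genes of a cluster are those with the highest fold against all remaining cells, with 10 CPM added and the smaller of both libraries' folds taken; 1 such gene is not reported here.

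UMIs were added up within each library for every class and every cluster. These sums were compared in R 4.3.3 by the quasi-likelihood test of edgeR 4.0.16 (glmQLFit, glmQLFTest, TMM, filterByExpr, Benjamini-Hochberg adjustment over all genes tested). The fit over classes had 16 sums of 8 classes, 12156 genes and 7 residual degrees of freedom. The fit over clusters had 32 sums of 16 clusters, 12385 genes and 15 residual degrees of freedom, and each cluster was set against the mean of the others of its class. Both fits kept groups with at least 50 cells per library and had the library as a block, since both sides of a comparison come from the same 2 libraries. Deviations of the libraries from their class means correlated with r = 0.21 (macrophage-like and microglia-like), 0.11 (macrophage-like and monocyte-like), 0.15 (neutrophil-like and microglia-like) and 0.026 (monocyte-like and microglia-like). Of the 10 members, 9 passed filterByExpr. The 2 libraries were not copies of each other (chi-square per degree of freedom 333.8 over 14854 genes).

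All 10 members are named in every comparison of classes. Of each other list, up to 2 genes with the largest rise and 2 with the largest fall past the threshold, with the same sign in both libraries, are named, and Keap1 and Slc3a2 were named after their values were seen. The genes closest in profile were ranked by Pearson r over z-scored log2(CPM + 10). On simulated counts for macrophage-like minus microglia-like over 12156 genes, the test found 52 of 100 genes changed by 1 (log2) and 88 of 100 changed by 2, with 1 false call among 11956 unchanged genes. Alternatives covered doublets, a stricter cell filter (2000 UMIs, 1000 genes, 5% mitochondrial UMIs), Leiden resolutions 0.4 and 1.2, size factors, DESeq2 1.42.0, no filter on low counts, no block, single libraries, a marker gate and, added after seeing the data, total-UMI scaling and the class without its Arg1-led cluster. Scripts ran in Python 3.11.15 with pandas 2.3.3, numpy 2.4.6, matplotlib 3.10.9 and scipy 1.17.1.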

Additional observations from a re-analysis of the deposited data

Results flagged for a closer look

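A pair of clusters that were too small in replicate 2 to enter the fits, and so have no test, held members above every class in both libraries. The first was an unnamed cluster with Uchl1, Gclm, Prdx1 and Prdx6 among its leading genes (143 cells of replicate 1 and 14 of replicate 2), which had 4 members among its 10 leading genes, as well as Hmox1, Esd and Mt2. Its Prdx1 level was 11180 and 7232 CPM, its Gclm level 664.3 and 457.9 CPM, its Prdx6 level 1067 and 1374 CPM and its Srxn1 level 123.9 and 114.5 CPM. Gclc, which differed little between classes, reached 95.8 and 94.3 CPM there, and Txnrd1 154.1 and 154.9 CPM. Nfe2l2 was low, at 87.0 and 80.8 CPM. Gclm had a UMI in 124 of 143 cells and 7 of 14 cells, and Hmox1, which is not a member, stood at 8414 and 4572 CPM.

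Cells of this cluster with at least 3 UMIs over 17 astrocyte, oligodendrocyte and neuron markers numbered 10 and 8. Without them, the 133 and 6 cells left had 11570 and 12360 CPM of Prdx1, 679 and 810.8 CPM of Gclm and 128 and 209 CPM of Srxn1. The macrophage gene Lyz2 stood at 5517 and 5522 CPM in the whole cluster.

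The second was the border-associated macrophage-like cluster led by Xist, Mrc1 and Marco (241 and 18 cells), with Prdx1 at 7955 and 3645 CPM. Its other members were less even between libraries, with Srxn1 at 119.5 and 29.5 CPM and Nqo1 at 18.8 CPM in replicate 1 and no UMI in the 18 cells of replicate 2. This cluster also held 796 and 1157 CPM over the 7 cycling markers, against 24.5 and 32.1 CPM in macrophage-like cells. Their part in the members' values was not tested.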

How the results depend on the processing

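The 7 members higher in macrophage-like than in microglia-like cells numbered 5 at Leiden resolution 0.4 and 6 without the Arg1-led cluster, with a median log2 fold change of 0.89 and 0.97, and Slc7a11 reversed to -0.21 at resolution 0.4. At resolution 0.4 nearly all cells of the Arg1-led cluster were counted as monocyte-like (97.8% and 100%). For macrophage-like minus monocyte-like cells the median was -0.069 with the stricter cell filter, -2.00 at resolution 0.4, -0.22 at resolution 1.2 and -1.43 without the Arg1-led cluster, and the members lower numbered 1 with the stricter filter and 2 at resolution 1.2; the cause was not tested. Neutrophil-like cells had 3 members higher than microglia-like cells with doublets kept; the cause was not tested. In single libraries, which allow no test, the medians ran from 1.78 to 2.75 (macrophage-like minus microglia-like), -0.57 to -0.36 (macrophage-like minus monocyte-like), 1.64 to 3.33 (monocyte-like minus microglia-like) and 0.42 to 1.47 (neutrophil-like minus microglia-like). Without the library as a replicate block these medians were 2.41, -0.43, 2.45 and 0.94, with the same numbers of members called. Over the clusters the block mattered more, with 17 calls without it and 21 with it in macrophage-like clusters, and 19 and 23 in microglia-like clusters. Of 470 values recomputed for classes, 445 kept their call or moved by less than the spread, and of 567 for clusters 503 did. With scaling to total UMIs in place of TMM, calls of higher made up 26.4% in place of 51.8% of all calls for macrophage-like minus microglia-like cells, where the same 7 members passed, and 31.7% in place of 54.3% for monocyte-like minus microglia-like cells. Over clusters the share was 84.3% in place of 57.2% for the Arg1-led, 22.8% in place of 46% for the Gpnmb-led and 33.7% in place of 51.3% for the Fbxo32-led one. Among microglia-like clusters it was 65.7% in place of 83.9% (Tnf-led), 81.1% in place of 51.7% (Gm13889-led), 90.1% in place of 57.6% (Slc2a5-led), 40.4% in place of 63.5% (Ctla2a-led) and 21.8% in place of 51.9% (Cst7-led). Depth limits Nqo1 in every class and Srxn1 and Slc7a11 in microglia-like cells, where levels lay below free RNA, and each class rests on 2 libraries.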

Other observations

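A cluster led by Ear2, Ace and Itgal (89 and 81 cells), which took no name, was not compared with other cells by a test. Gsr stood at 359.7 and 434.1 CPM there, against 161 and 353 CPM in neutrophil-like cells, and Slc7a11 at 169.1 and 209.5 CPM, against 215 and 504 CPM. Gclm stood at 43.0 and 45.4 CPM in this cluster, against 48.3 and 50.5 CPM in neutrophil-like cells, and Srxn1 at 15.4 and 10.8 CPM, against 11.03 and 10.10 CPM. Monocyte-like cells held 283 and 339 CPM of Gsr and 332 and 430 CPM of Slc7a11. They held 93.3 and 168 CPM of Gclm and 52.3 and 78.8 CPM of Srxn1, both above this cluster. The cluster held 7574 and 12150 CPM over the 10 neutrophil markers, of which 2 and 3 were at 0, and their part in these values was not tested. Over the 8 monocyte markers it held 2060 and 3110 CPM. Ear2 and Ace are known from patrolling blood monocytes, and the marker rule gave this cluster no name.

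Nqo1, which reached at most 4.55 CPM in the 8 classes compared, had its highest levels among clusters of at least 50 cells in replicate 1 in an unnamed cluster led by 1500015O10Rik and Nov (67 and 6 cells), at 48.2 and 22.4 CPM, from 23 and 3 UMIs. Matrix genes such as Mgp and Col6a2 were also among the leading genes of this cluster.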
